A study of Mus musculus with 12 samples.

Results

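The 10 genes followed here set whether a cell leaves G1, and they were measured in cardiomyocytes of mice targeted for Chaf1a, which encodes a subunit of the histone chaperone CAF-1, and of control mice. They are the 3 D cyclins Ccnd1, Ccnd2 and Ccnd3, their kinases Cdk4 and Cdk6, the CDK inhibitors Cdkn1b (p27) and Cdkn1c (p57), and the pocket proteins Rb1, Rbl1 (p107) and Rbl2 (p130). They were taken by symbol from a list that was chosen with earlier results of these data known. Of these, 10 of 10 were found among the 25239 gene symbols of each deposited count table. The libraries labelled Chaf1a cko (3) come from mice carrying floxed Chaf1a and Myh6-Cre, a recombinase whose promoter is active in heart muscle cells. The libraries labelled Ctrl (3), whose genotype label is WT, come from mice with the floxed alleles and no Cre, so Cre and the deletion cannot be told apart. A separate table holds Chaf1a cko 3M (3) and Ctrl 3M (3), with the same genotypes. The first table is called the first set and the other the 3M set, since the labels neither spell out 3M nor give an age. RNA came from cultured cardiomyocytes per the labels' protocols, and the labels do not say that libraries are separate animals, so p-values reflect only how much these libraries vary, which may be technical.

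D cyclins are the subunits that growth signals supply, and they switch on CDK4 and CDK6. These kinases phosphorylate the pocket proteins, which otherwise hold E2F transcription factors and keep genes of DNA synthesis and mitosis off. p27 and p57 bind and restrain cyclin-CDK complexes. In the mouse heart the D cyclins decline as cardiomyocytes stop dividing after birth, while p27, Rb1 and Rbl2 are known for keeping them out of the cycle. Rbl1 is itself an E2F target and is usually high in cycling cells, and Rbl2 is usually high in resting cells. Cdkn1c is an imprinted gene expressed mainly from the maternal copy.

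Of these 10 genes, 0 passed the test, both for the first set and for the 3M set. The test was edgeR's quasi-likelihood test at an adjusted p under 0.05, which called 1.18% of the 22965 genes tested in the first set (0.74% higher and 0.435% lower) and 0.0144% of the 13925 tested in the 3M set (0.00718% higher and 0.00718% lower). At an unadjusted p under 0.05, Ccnd2, Cdkn1c, Cdk4 and Rbl2 were counted in the first set, 4 of 10 and each on the higher side, against 10.1% of all genes in either direction, 5.63% on the higher side and 4.5% on the lower side. That count of 4 depended on the fit: it was 2 with library size alone, with a minimum of 10 CPM and on dropping Chaf1a cko replicate 2 or either of Ctrl replicates 1 and 2. It was 5 with a replicate block. Without Chaf1a cko replicate 3 it was 3, all on the higher side. Without Chaf1a cko replicate 1 it was 3 on the higher side and 1 on the lower side. In the 3M set 1 gene was counted, Rbl1, on the lower side, against 6.93% of all genes, 3.2% on the higher side and 3.73% on the lower side. It was 0 genes with a replicate block and without Ctrl 3M replicate 1 or Chaf1a cko 3M replicate 1 or 3, and 1 higher and 2 lower without Ctrl 3M replicate 2. DESeq2's Wald test also called 0 of the 10 in each set. All 10 genes passed the filter on low counts in each set. The median log2 fold change of the 10, as Chaf1a cko over Ctrl, was 0.22 in the first set, against -0.01 over all genes tested, and 0.04 in the 3M set, against -0.02 over all genes tested.

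**Figure D1:**
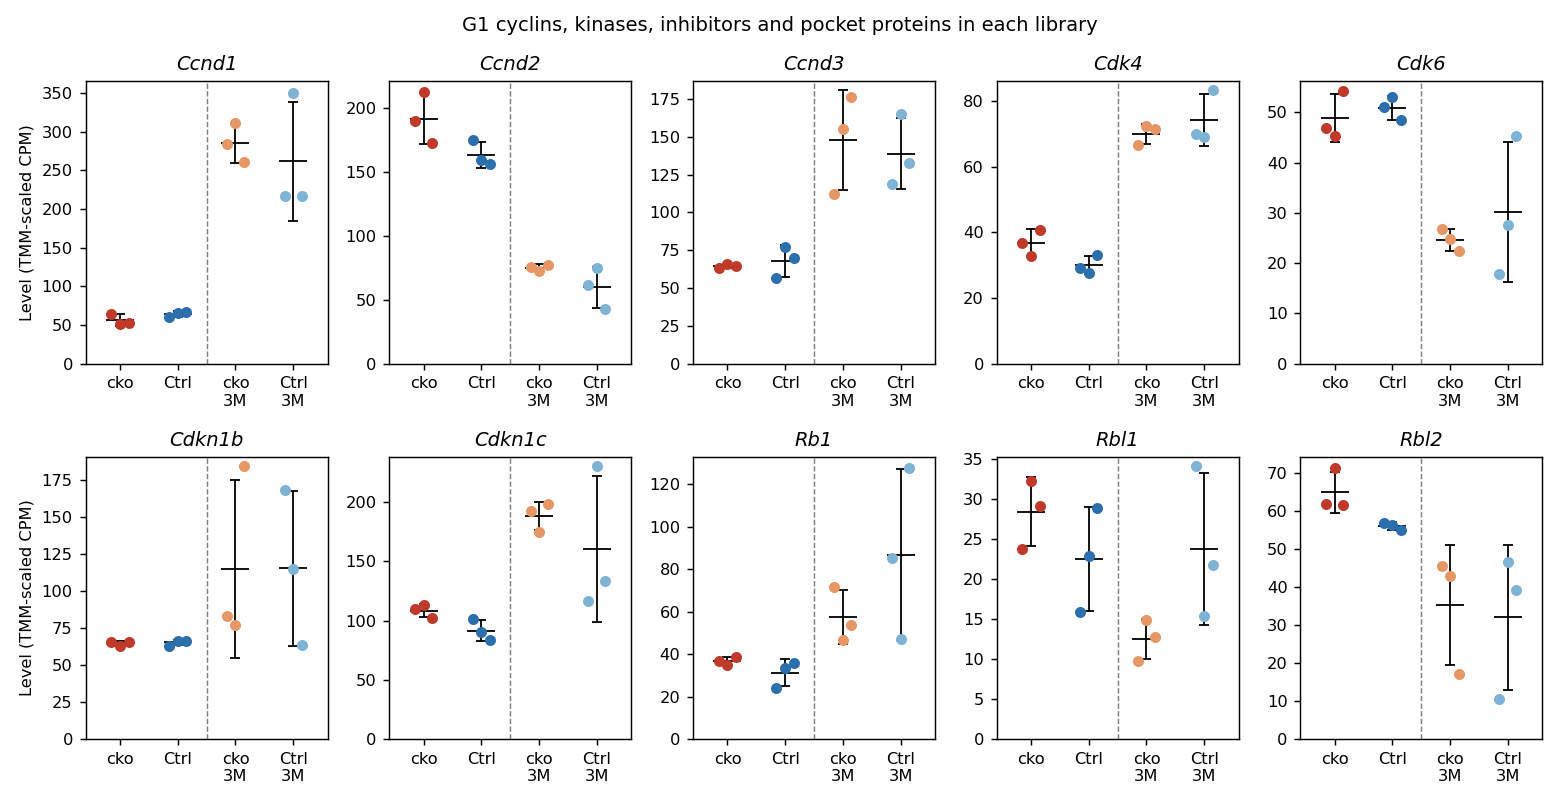
Level of each gene in every library, as TMM-scaled CPM (vertical axis, from 0), with 3 libraries per group as points and the mean ± SD as black bars; the dashed line separates the 2 count tables, whose levels were not tested against each other. Cdkn1c and Rbl2 in the first set and Rbl1 in the 3M set are the panels in which the 3 Chaf1a cko points lie apart from the 3 Ctrl points of the same table.

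First-set libraries held 15068468 to 20896673 counts each, and 3M libraries held 10569325 to 16445963. CPM here are counts in a library scaled to its TMM-adjusted total. Chaf1a itself, the gene targeted, averaged 25.1 ± 3.56 CPM in Chaf1a cko against 24.6 ± 6.93 CPM in Ctrl. For the 3M libraries the means were 6.49 ± 1.61 CPM in Chaf1a cko 3M against 5.45 ± 3.99 CPM in Ctrl 3M (SD, n = 3 each). Its mean was thus no lower in the libraries labelled as knockout, and directions below are those of the labels. Which exons are floxed is not stated in the labels, and the counts cover the whole gene. All 10 cardiomyocyte markers, among them Myh6 and Tnnt2, had counts, with a summed level of 88497 to 89078 CPM in Chaf1a cko and 93478 to 96703 CPM in Ctrl, and of 49056 to 52736 CPM in Chaf1a cko 3M and 32279 to 39398 CPM in Ctrl 3M. The first table held counts for 94.8% to 97.6% of 1523 chemoreceptor genes in each library, taken as genes mostly silent in the heart, and 95% of those genes averaged under 5.39 CPM. Every one of the 10 genes was above that level in each first-set library. The highest mean of a chemoreceptor gene was 17.97 CPM there, above Rbl1 in Ctrl replicate 1 at 15.9 CPM. These levels are not scaled to exon length. Per kilobase of exon, Cdk6 was at 3.93 to 4.71 CPM in Chaf1a cko and Rbl1 at 3.28 to 5.94 CPM in Ctrl. For the 3M table the share of chemoreceptor genes with counts was 1.25% to 1.71%. The summed level of 4 Y-linked genes in the first set was 115 to 133.99 CPM in Chaf1a cko and 50.05 to 61.1 CPM in Ctrl, so genotype and sex mixture cannot be told apart there. In the 3M set it was 355 to 394 CPM in Chaf1a cko 3M and 393 to 646 CPM in Ctrl 3M, a narrow overlap. The median log2 fold change of the 4 genes was -0.45 there, with 0 past the test. The part of sex mixture in the 3M values was not tested.

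The D cyclins lie on 3 chromosomes of mm10: Ccnd1 (Entrez gene 12443) on chromosome 7 from 144929931 to 144939925, Ccnd2 (12444) on chromosome 6 from 127125162 to 127152193 and Ccnd3 (12445) on chromosome 17 from 47505051 to 47599691. Ccnd2, the D cyclin with the highest counts in the first set, stood at 190, 213 and 173 CPM in Chaf1a cko, against 175, 159 and 156 CPM in Ctrl. The lowest Chaf1a cko library was just under the highest Ctrl library, so the groups overlapped by that single value. The means were 192 ± 20.1 CPM in Chaf1a cko and 164 ± 10.2 CPM in Ctrl (SD, n = 3 each), a log2 fold change of 0.23 (SE 0.07, 95% interval 0.07 to 0.38), and the edgeR quasi-likelihood fit gave it an adjusted p of 0.213. Across the 10 genes this was the smallest adjusted p in the first set.

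Ccnd2 in the 3M set was at 75.8, 72.3 and 77.2 CPM in Chaf1a cko 3M, against 61.8, 74.6 and 43.1 CPM in Ctrl 3M. The Chaf1a cko 3M libraries were close together and overlapped 1 of the Ctrl 3M libraries. The log2 fold change was 0.33 (SE 0.23, 95% interval -0.20 to 0.85; adjusted p by edgeR 0.808). The interval holds anything from a 0.872-fold to a 1.81-fold level.

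Ccnd1, the D cyclin best known as a growth factor sensor, was at 64.7, 51.7 and 53.0 CPM in Chaf1a cko and at 60.2, 65.4 and 67.4 CPM in Ctrl. The groups overlapped through Chaf1a cko replicate 1, and the log2 fold change was -0.19 (SE 0.10, 95% interval -0.41 to 0.03; adjusted p by edgeR 0.582). Ccnd1 shares 23.4% of its exon bases with LTO1 on the opposite strand. The 3M values were 284, 311 and 260 CPM in Chaf1a cko 3M and 217, 350 and 217 CPM in Ctrl 3M. Both the highest and the lowest values belonged to Ctrl 3M, and the log2 fold change was 0.12 (SE 0.23, 95% interval -0.41 to 0.66).

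Ccnd3, the D cyclin that stays on in many resting and differentiated cells, was at 63.3, 66.2 and 64.9 CPM in Chaf1a cko and at 56.9, 77.4 and 69.7 CPM in Ctrl. The Chaf1a cko values lay inside the Ctrl range, with a log2 fold change of -0.07 (SE 0.10, 95% interval -0.29 to 0.15). It stood at 112, 155 and 177 CPM in Chaf1a cko 3M and at 119, 165 and 132.99 CPM in Ctrl 3M, again overlapping, with a log2 fold change of 0.09 (SE 0.23, 95% interval -0.43 to 0.61).

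Ccnd2 and Ccnd3 made up most of the D cyclin family in the first table, and Ccnd1 and Ccnd3 in the 3M table, in both genotypes. Levels of different genes were compared as CPM per kilobase of exon in protein-coding transcripts of the GENCODE M21 basic set, and shares are each gene's part of its family's sum on that scale. Ccnd2 made up 40.7% ± 2.65 of the family in Chaf1a cko and 35.3% ± 4.02 in Ctrl, and 7.61% ± 0.830 in Chaf1a cko 3M and 6.60% ± 1.28 in Ctrl 3M (SD, n = 3 each). Ccnd1 made up 21.5% ± 2.59 in Chaf1a cko and 24.8% ± 0.929 in Ctrl, and 51.8% ± 5.91 in Chaf1a cko 3M and 51.1% ± 2.93 in Ctrl 3M. Ccnd3 was at 37.8% ± 1.92 in Chaf1a cko, 39.9% ± 4.02 in Ctrl, 40.6% ± 6.33 in Chaf1a cko 3M and 42.3% ± 3.33 in Ctrl 3M. Within a single library the ratio of Ccnd1 to Ccnd2 per kilobase was 0.436 to 0.612 in Chaf1a cko and 0.616 to 0.774 in Ctrl, and 6.05 to 7.73 in Chaf1a cko 3M and 6.30 to 9.04 in Ctrl 3M. Ccnd2 thus exceeded Ccnd1 in each of the 6 first-set libraries and Ccnd1 exceeded Ccnd2 in each of the 6 libraries of the 3M set. Age, culture and library making cannot be told apart between the tables, so these are values side by side with no test.

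**Figure D2:**
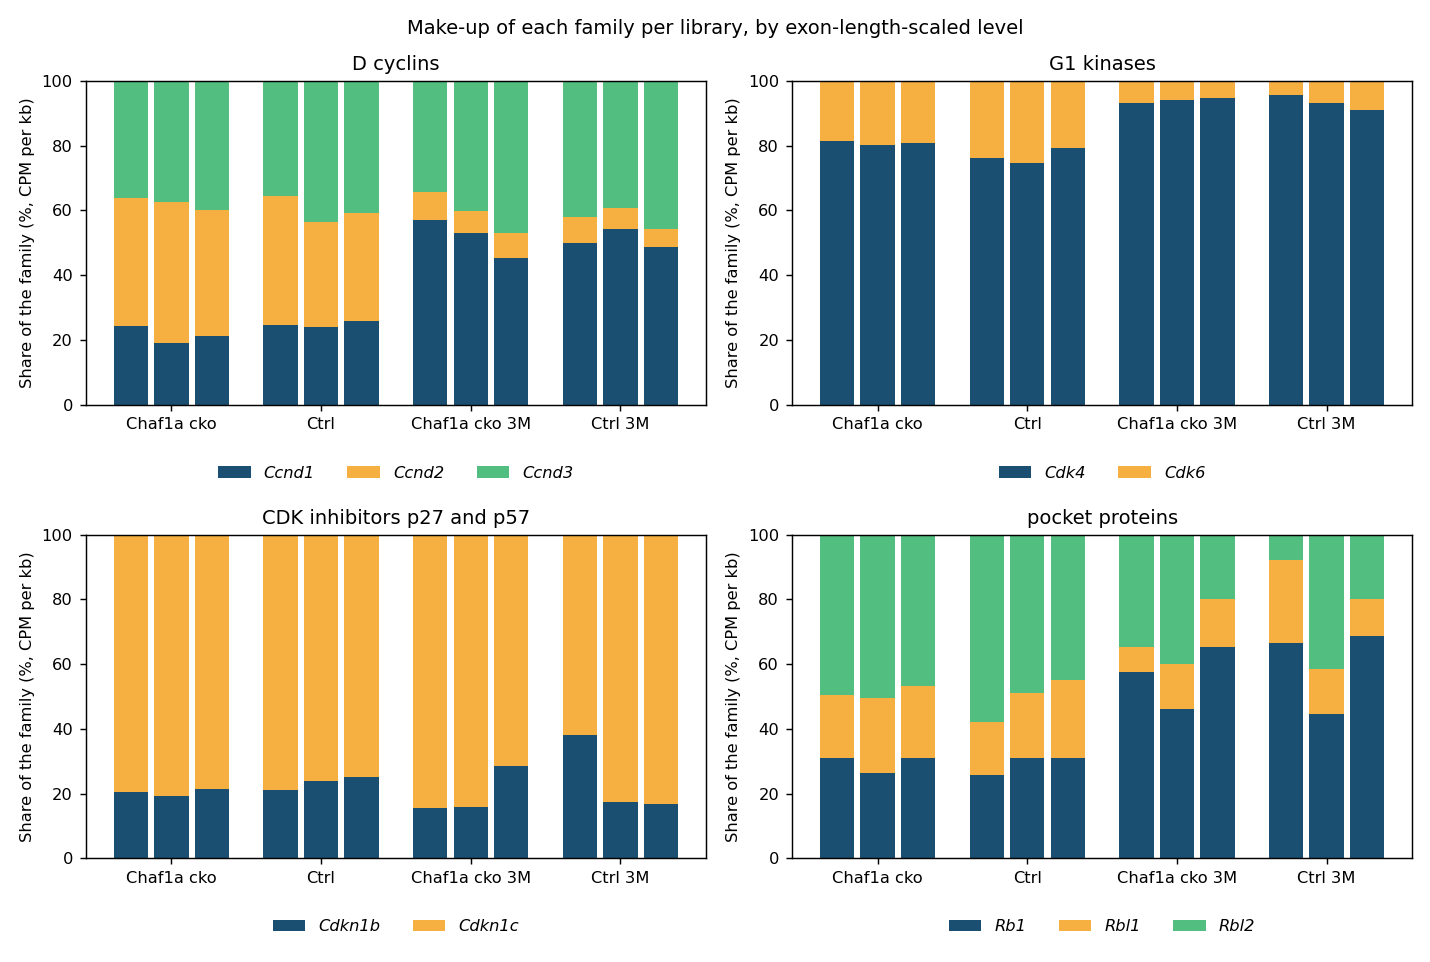
Each bar is 1 library, in the order of replicates 1 to 3 within a group, and shows the share (%) that each gene holds of its family's summed level in CPM per kilobase of exon. The Ccnd2 segment is 38.7% to 43.7% of the D cyclins in Chaf1a cko and 32.6% to 39.9% in Ctrl but 5.40% to 8.49% in the 6 libraries of the 3M set, and Cdk4 is the larger part of the kinases in each library.

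Cdk4 and Cdk6 are the kinases that D cyclins activate. Cdk4 (Entrez gene 12567, chromosome 10 from 127063534 to 127067920) was at 36.9, 32.7 and 40.9 CPM in Chaf1a cko and at 29.2, 27.7 and 33.0 CPM in Ctrl. The lowest Chaf1a cko library was just below the highest Ctrl library. The log2 fold change was 0.30 (SE 0.13, 95% interval 0.02 to 0.57; adjusted p by edgeR 0.458). Cdk4 in the 3M set was at 66.6, 72.3 and 71.4 CPM in Chaf1a cko 3M and at 70.2, 69.1 and 83.4 CPM in Ctrl 3M, which overlapped, with a log2 fold change of -0.08 (SE 0.18, 95% interval -0.49 to 0.33). That interval is the narrowest among the 10 genes in the 3M set.

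Cdk6 (Entrez gene 12571, chromosome 5 from 3341485 to 3531008) was at 46.9, 45.3 and 54.3 CPM in Chaf1a cko and at 51.1, 53.0 and 48.4 CPM in Ctrl, with a log2 fold change of -0.06 (SE 0.11, 95% interval -0.28 to 0.17). It was at 26.7, 24.8 and 22.4 CPM in Chaf1a cko 3M and at 17.8, 27.6 and 45.2 CPM in Ctrl 3M, where the Ctrl 3M libraries spread around the Chaf1a cko 3M ones (log2 fold change -0.30, SE 0.34). Per kilobase, Cdk4 was 4.05 to 4.41 times Cdk6 in Chaf1a cko libraries and 2.94 to 3.83 times in Ctrl libraries. The same ratio was 14.0 to 17.9 in Chaf1a cko 3M and 10.3 to 22.1 in Ctrl 3M. In the first set the ratio did not overlap between genotypes, and in the 3M set it did. The ratio of Ccnd1 to Ccnd2 behaved likewise, with a narrow gap in the first set (0.612 against 0.616). Single genes separated in the first set for 16.2% of all genes in either direction, and no such share was counted for ratios. Both ratios are given as a description, as they were looked at with the values of their genes known. Cdk4 shares 19.7% of its exon bases with Tspan31 on the opposite strand, which averaged 17.6 ± 1.44 CPM in Chaf1a cko and 18.3 ± 4.46 CPM in Ctrl (SD, n = 3 each; log2 fold change -0.05).

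Cdkn1b and Cdkn1c encode the CDK inhibitors p27 and p57. Cdkn1c (Entrez gene 12577) lies on chromosome 7 from 143458339 to 143461050, 1.47 Mb from Ccnd1, and Cdkn1b (12576) lies on chromosome 6 from 134920401 to 134925513, 7.77 Mb from Ccnd2. Cdkn1c was at 110, 113 and 102 CPM in Chaf1a cko and at 101, 90.2 and 83.7 CPM in Ctrl. Every Chaf1a cko library was above every Ctrl library, a separation seen for 8.33% of all genes on the higher side, 7.85% on the lower side and 16.2% in either direction. The means were 108 ± 5.58 CPM in Chaf1a cko and 91.7 ± 8.92 CPM in Ctrl (SD, n = 3 each), a log2 fold change of 0.24 (SE 0.08, 95% interval 0.07 to 0.42; adjusted p by edgeR 0.252). Cdkn1c in the 3M set was at 192, 175 and 198 CPM in Chaf1a cko 3M and at 117, 231 and 133.3 CPM in Ctrl 3M. There the groups overlapped through Ctrl 3M replicate 2, and the log2 fold change was 0.23 (SE 0.27, 95% interval -0.38 to 0.84), with a range of 0.048 to 0.59 when 1 library was left out. Gm44732, an antisense gene not among the symbols of the tables, overlaps 30.7% of the Cdkn1c exon bases.

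Cdkn1b was at 65.7, 63.0 and 65.8 CPM in Chaf1a cko and at 63.2, 66.6 and 66.1 CPM in Ctrl. It had the log2 fold change nearest 0 of the 10 genes in the first set, at -0.01 (SE 0.09), and the 95% interval from -0.19 to 0.17 leaves room for a 0.875-fold to a 1.13-fold level. Its 3M values were 83.0, 77.3 and 184 CPM in Chaf1a cko 3M and 168, 115 and 63.3 CPM in Ctrl 3M. A single high library in Chaf1a cko 3M and the wide Ctrl 3M range gave a 95% interval from -1.08 to 1.07 on the log2 scale, which does not exclude a 2-fold difference in either direction. Cdkn1c was the most abundant of the 10 genes per kilobase in each group, at 55.9 ± 2.87 in Chaf1a cko, 47.2 ± 4.60 in Ctrl, 97.0 ± 6.14 in Chaf1a cko 3M and 82.5 ± 31.7 CPM per kilobase in Ctrl 3M (SD, n = 3 each).

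The pocket proteins hold E2F factors, and one of them, Rbl1, had the largest log2 fold change of the 10 genes in each set. Rbl1 (Entrez gene 19650) lies on the reverse strand of chromosome 2 from 157145893 to 157204534. Its promoter is shown because Rbl1 is the gene with those values and has, of the windows read here, the only pair of E2F-like matches. The sequence is RefSeq's for GRCm38.p6, the assembly of mm10, at chr2:157204485-157204784 on the reverse strand, 250 bases before and 50 after the start of the gene, and capitals mark the letters TTTNNCGC:

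Rbl1 promoter: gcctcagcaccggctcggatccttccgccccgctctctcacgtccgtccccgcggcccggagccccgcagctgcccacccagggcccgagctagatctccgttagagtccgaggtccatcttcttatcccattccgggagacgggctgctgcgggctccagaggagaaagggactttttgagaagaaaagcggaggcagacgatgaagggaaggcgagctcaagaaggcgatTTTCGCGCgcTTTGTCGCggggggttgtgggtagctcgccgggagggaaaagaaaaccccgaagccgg

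The matches begin 18 and 8 bases before the start, on the gene's strand, and do not overlap each other. TTTNNCGC, searched on both strands, was found in 5.17% of 32851 promoter windows of 300 bases. RefSeq windows were matched for 6 of the 10 genes (7 windows, since Ccnd3 has 2), and the letters were found in 2 windows, those of Rbl1 and Cdk6. Cdk6 had 1 match, 198 bases before a RefSeq start that lies inside the GENCODE span of the gene given above. A match is a description of letters and not a site that was measured.

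Rbl1 was at 23.8, 32.3 and 29.2 CPM in Chaf1a cko and at 15.9, 22.9 and 28.9 CPM in Ctrl. The values of the first set overlapped, with a log2 fold change of 0.33 (SE 0.19, 95% interval -0.07 to 0.73; adjusted p by edgeR 0.615). The 3M set placed it at 9.84, 14.9 and 12.8 CPM in Chaf1a cko 3M and at 34.1, 15.4 and 21.7 CPM in Ctrl 3M. Every Chaf1a cko 3M library was below every Ctrl 3M library, by a narrow gap to Ctrl 3M replicate 2, and such a separation was seen for 6.89% of all genes on the lower side, 7.21% on the higher side and 14.1% in either direction. The means were 12.5 ± 2.53 CPM in Chaf1a cko 3M and 23.7 ± 9.49 CPM in Ctrl 3M (SD, n = 3 each), a log2 fold change of -0.92 (SE 0.35, 95% interval -1.72 to -0.12; adjusted p by edgeR 0.703).

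Macrophage markers, which mark the resident immune cells of the heart, moved with the same groups as Rbl1. All 10 macrophage markers had counts, with a summed level of 271 to 312 CPM in Chaf1a cko 3M and 446 to 517 CPM in Ctrl 3M, and 9 of the 10 had a negative log2 fold change, none past the test. The cardiomyocyte markers, at the sums given above, did not overlap between these groups either. The part of these cells in the Rbl1 values was not tested, and in these bulk libraries fewer cells of a type and less RNA per cell cannot be told apart. The markers of lymphocytes, mural cells and endothelium overlapped in summed level between the 3M groups, and so did those of fibroblasts, at 1250 to 1680 CPM in Chaf1a cko 3M and 1378 to 2524 CPM in Ctrl 3M. Erythroid markers were at 2.99 to 25.9 CPM in Chaf1a cko 3M and 6.99 to 14.5 CPM in Ctrl 3M, with Epb42 and Hemgn at 0 in all 6 libraries.

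Rb1 (Entrez gene 19645, chromosome 14 from 73183673 to 73325822), the retinoblastoma protein gene, was at 36.7, 35.0 and 38.7 CPM in Chaf1a cko and at 24.1, 33.8 and 36.0 CPM in Ctrl. Ctrl replicate 1 was the low value, and the log2 fold change was 0.23 (SE 0.15, 95% interval -0.08 to 0.53), or 0.076 without that library. Rb1 in the 3M set was at 71.9, 47.0 and 53.9 CPM in Chaf1a cko 3M and at 85.2, 47.5 and 128 CPM in Ctrl 3M. The lowest libraries of the groups were alike, and the log2 fold change was -0.59 (SE 0.35, 95% interval -1.39 to 0.21; adjusted p by edgeR 0.772), with a range of -0.89 to -0.20 when 1 library was left out. Exons of Rb1 overlap those of Rcbtb2 and Lpar6 on the opposite strand, over 8.11% and 6.78% of the exon bases.

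Rbl2 (Entrez gene 19651, chromosome 8 from 91070057 to 91123844) was at 62.0, 71.4 and 61.7 CPM in Chaf1a cko and at 56.9, 56.5 and 55.1 CPM in Ctrl. Every Chaf1a cko library was above every Ctrl library. Such a separation was seen for 8.33% of all genes on the higher side, 7.85% on the lower side and 16.2% in either direction. The 3 Ctrl libraries were close together. The log2 fold change was 0.21 (SE 0.09, 95% interval 0.01 to 0.41; adjusted p by edgeR 0.460). Rbl2 in the 3M set was at 45.7, 43.0 and 17.3 CPM in Chaf1a cko 3M and at 10.5, 46.7 and 39.3 CPM in Ctrl 3M, with 1 low library in each group. The 95% interval of the log2 fold change of 0.13 ran from -1.29 to 1.56, the widest of the 10. On the opposite strand, Aktip overlaps 9.17% of the Rbl2 exon bases and Gm45464, which is not among the symbols of the tables, 11.8%.

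Within the pocket protein family, Rbl2 held 49.0% ± 2.05 in Chaf1a cko and 50.6% ± 6.55 in Ctrl on the scale per kilobase, against 29.4% ± 2.77 and 29.3% ± 3.00 for Rb1 in Chaf1a cko and Ctrl (SD, n = 3 each). In the 3M set Rb1 held the larger mean share, 56.4% ± 9.70 in Chaf1a cko 3M and 60.0% ± 13.4 in Ctrl 3M, against 31.5% ± 10.4 and 23.1% ± 17.1 for Rbl2 in Chaf1a cko 3M and Ctrl 3M. Rb1 was above Rbl1 in each of the 12 libraries, by 1.13 to 1.61 times in Chaf1a cko, 1.30 to 1.58 times in Ctrl, 3.29 to 7.63 times in Chaf1a cko 3M and 2.61 to 6.14 times in Ctrl 3M.

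**Figure D3:**
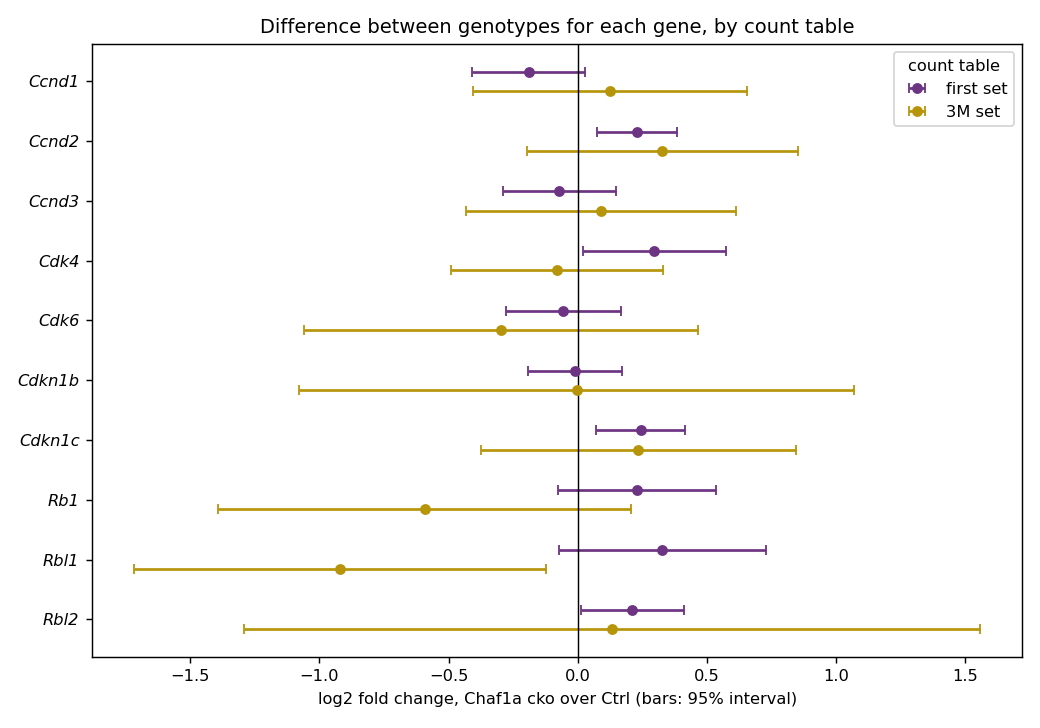
Log2 fold change of Chaf1a cko over Ctrl for each of the 10 genes (horizontal axis), in the first set (purple, upper point) and the 3M set (yellow, lower point), with bars for the 95% interval of edgeR's fit. The interval is wider in the 3M set for 10 of 10 genes, and Ccnd1, Ccnd3, Cdk4, Rb1 and Rbl1 lie on opposite sides of 0 in the 2 sets.

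The sets were then compared directly. Of the 10 genes, 5 had the same sign in both sets (Ccnd2, Cdk6, Cdkn1b, Cdkn1c and Rbl2) and 5 had opposite signs (Ccnd1, Ccnd3, Cdk4, Rb1 and Rbl1). The difference of the effects, 3M set minus first set, was tested as an interaction in a fit of all 12 libraries, and 0 of the 10 genes passed, against 0.0658% of 22803 genes. At an unadjusted p under 0.05 it was 1 gene, Rbl1, against 9.47% of all genes. For Rbl1 the difference was -1.21 on the log2 scale (SE 0.44, 95% interval -2.17 to -0.25), and the adjusted p from edgeR was 0.460. For Rb1 it was -0.78 (SE 0.43, 95% interval -1.74 to 0.17), and for Cdk4 -0.34 (SE 0.19, 95% interval -0.76 to 0.08). The remaining 7 differences lay between -0.20 (Cdk6) and 0.35 (Ccnd1).

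The order of levels per kilobase was nearly shared between genotypes. In Chaf1a cko it ran Cdkn1c, Ccnd2, Ccnd3, Cdk4, Ccnd1, Cdkn1b, Rbl2, Rb1, Rbl1 and Cdk6, with overlapping libraries between Ccnd2 and Ccnd3, and between each neighbour from Cdk4 to Rbl2. In Ctrl Ccnd3 stood before Ccnd2 and Ccnd1 before Cdk4. The Ctrl libraries overlapped between Ccnd3 and Ccnd2, Cdk4 and Cdkn1b, Rb1 and Rbl1, and Rbl1 and Cdk6. In both groups of the 3M set the order was Cdkn1c, Ccnd1, Ccnd3, Cdk4, Cdkn1b, Rb1, Ccnd2, Rbl2, Rbl1 and Cdk6. In Ctrl 3M the only neighbours whose libraries did not overlap were Ccnd3 and Cdk4. In Chaf1a cko 3M the overlapping neighbours were Ccnd1 and Ccnd3, Cdk4 and Cdkn1b, Rb1 and Ccnd2, and Rbl1 and Cdk6.

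**Figure D4:**
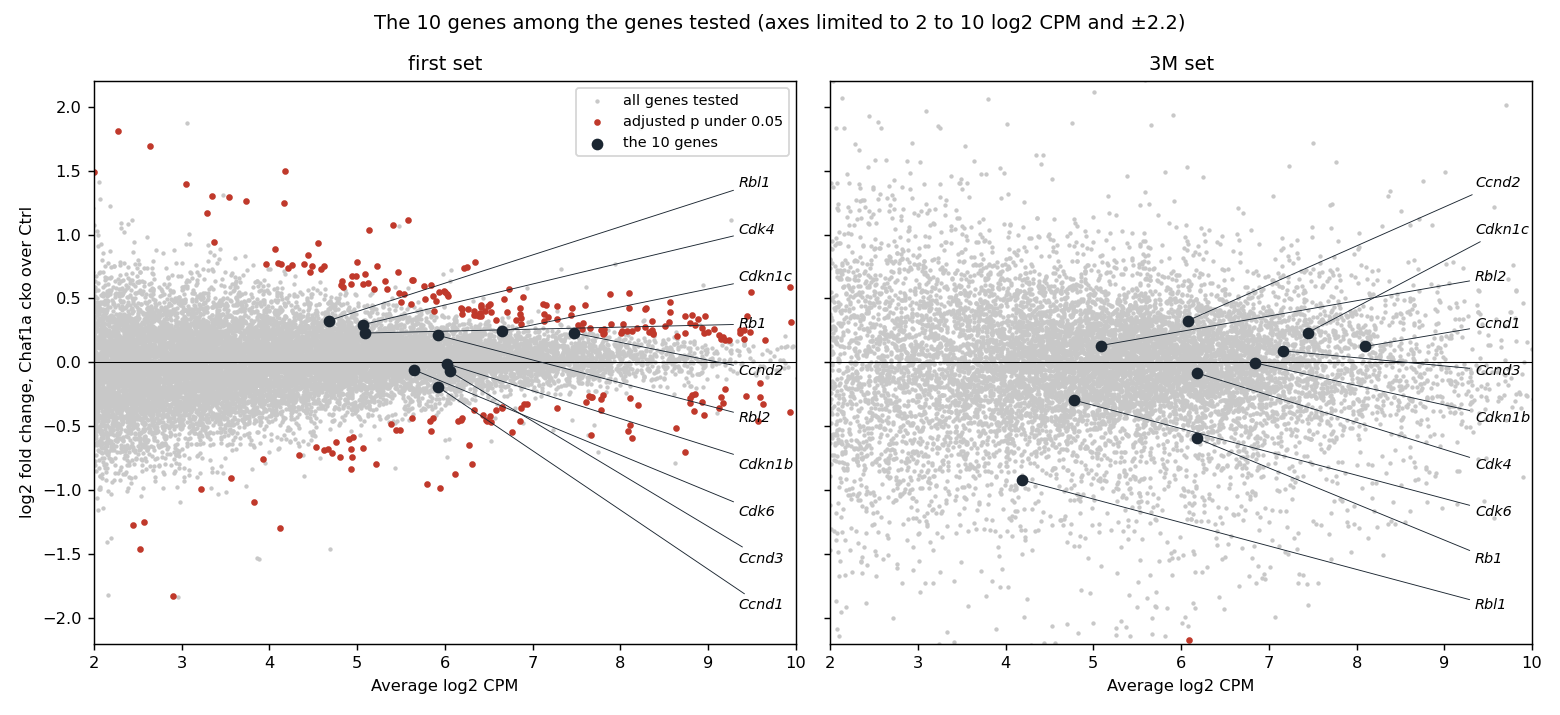
Log2 fold change of Chaf1a cko over Ctrl (vertical axis) against average log2 CPM (horizontal axis) in the first set (left) and the 3M set (right), with all genes tested in grey, genes at an adjusted p under 0.05 in red and the 10 genes in black with their names. The black points lie within the grey cloud in each panel, from -0.19 to 0.33 in the first set and from -0.92 to 0.33 in the 3M set.

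Genes around the 10 were read from the same fits, in 9 lists of the G1 pathway. These lists were chosen with earlier results of these data known. In the first set, genes of G2 and mitosis that the DREAM complex of pocket proteins, E2F4 and MuvB represses in resting cells included 5 that were higher in Chaf1a cko: 5 of 20 rose, 0 fell and 15 did not pass. Of all genes tested, 0.74% were called higher and 0.435% lower. In this list 20 of 20 were on the higher side, with a median log2 fold change of 0.38, against -0.01 over all genes. Mki67, a proliferation marker, rose to 784 ± 8.91 CPM in Chaf1a cko, against 609 ± 2.06 CPM in Ctrl (SD, n = 3 each; log2 fold change 0.36, SE 0.04, adjusted p 1.4e-05 in edgeR). Top2a, the mitotic topoisomerase, rose to 200 ± 9.46 CPM in Chaf1a cko, against 149 ± 4.71 CPM in Ctrl (log2 fold change 0.42). The kinetochore genes Nuf2 and Cenpf rose by 0.75 and 0.25 on the log2 scale, and the spindle motor gene Kif11 rose by 0.44. The calls for Mki67 and Top2a held without each library in turn. The others did not hold without Ctrl replicate 2 or Chaf1a cko replicate 1 or 3, where 2 of the pathway genes were called, nor did Nuf2 and Cenpf without Chaf1a cko replicate 2, where 3 were called. Without Ctrl replicate 1 the Kif11 call was lost, and without Ctrl replicate 3 those of Nuf2 and Kif11, with 4 pathway genes called each time. Kif11 was named after its value was seen.

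Among E2F target genes of S phase 0 of 20 passed, 17 were on the higher side and the median log2 fold change was 0.25. At an unadjusted p under 0.05 these were 9 of 20 genes, all higher, against 5.63% of all genes on the higher side. DESeq2 called Pcna. Pcna, the replication clamp, averaged 66.4 ± 7.25 CPM in Chaf1a cko and 50.2 ± 4.68 CPM in Ctrl (SD, n = 3 each; log2 fold change 0.40, adjusted p 0.0952 in edgeR), and Rrm1, a subunit of ribonucleotide reductase, had a log2 fold change of 0.20. Of the 10 mitogenic inputs 0 rose and 1 fell, against 0.74% called higher and 0.435% called lower over all genes. Myc, a growth-promoting transcription factor, fell to 61.1 ± 6.27 CPM in Chaf1a cko, against 83.6 ± 10.6 CPM in Ctrl (SD, n = 3 each; log2 fold change -0.45, SE 0.10, adjusted p 0.0398 in edgeR). The Myc call was lost without a filter on low counts (adjusted p 0.0553) and without any library except Ctrl replicate 3. Ctnnb1, which encodes beta-catenin, and the cardiac factor Tbx20 had log2 fold changes of 0.11 and -0.01.

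Partners that act directly with the 10 genes did not pass in the first set. Of 5 other CDK inhibitors, 0 passed, and Cdkn1a (p21) and Cdkn2d (p19) had log2 fold changes of -0.05 and -0.05. The highest of the 5 was Cdkn2c at 0.46 (adjusted p 0.466 in edgeR), which was named after its value was seen. It averaged 17.0 ± 3.12 CPM in Chaf1a cko and 12.3 ± 2.65 CPM in Ctrl (SD, n = 3 each). Of 5 genes for cyclins E and A and CDK2, 0 passed, with 0.33 for Ccna2 (77.0 ± 6.93 CPM in Chaf1a cko and 61.4 ± 1.22 CPM in Ctrl, SD, n = 3 each; adjusted p 0.115 in edgeR) and -0.04 for Cdk2. Of 10 E2F and DP factors, 0 passed, with 0.24 for the DP partner Tfdp2 and 0.05 for the repressor E2f7. Of 7 genes of the MuvB core and its partners, 0 passed, with 0.37 for Foxm1, a transcription factor of mitotic genes, and 0.11 for Rbbp4, a histone binding subunit that MuvB shares with CAF-1.

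The kinases and phosphatases that act on CDKs, and the enzymes that degrade G1 regulators, gave no call either. Of 7 genes of the CDK activating kinase and CDC25 group 0 passed, with 0.40 for Wee1, a kinase that inhibits CDK1, and 0.19 for Cdc25b. Of 10 genes for turnover of G1 regulators 0 passed, with -0.06 for Usp28 and 0.16 for the ubiquitin ligase scaffold Cul1. At an unadjusted p under 0.05 the 6 lists of partners and enzymes held 6 genes on the higher side and 1 on the lower side. Of all genes tested, 5.63% and 4.5% were counted on those sides. DESeq2's Wald test called 18 genes over the 9 lists, among them Ccna2, Tfdp2 and Foxm1.

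**Figure D5:**
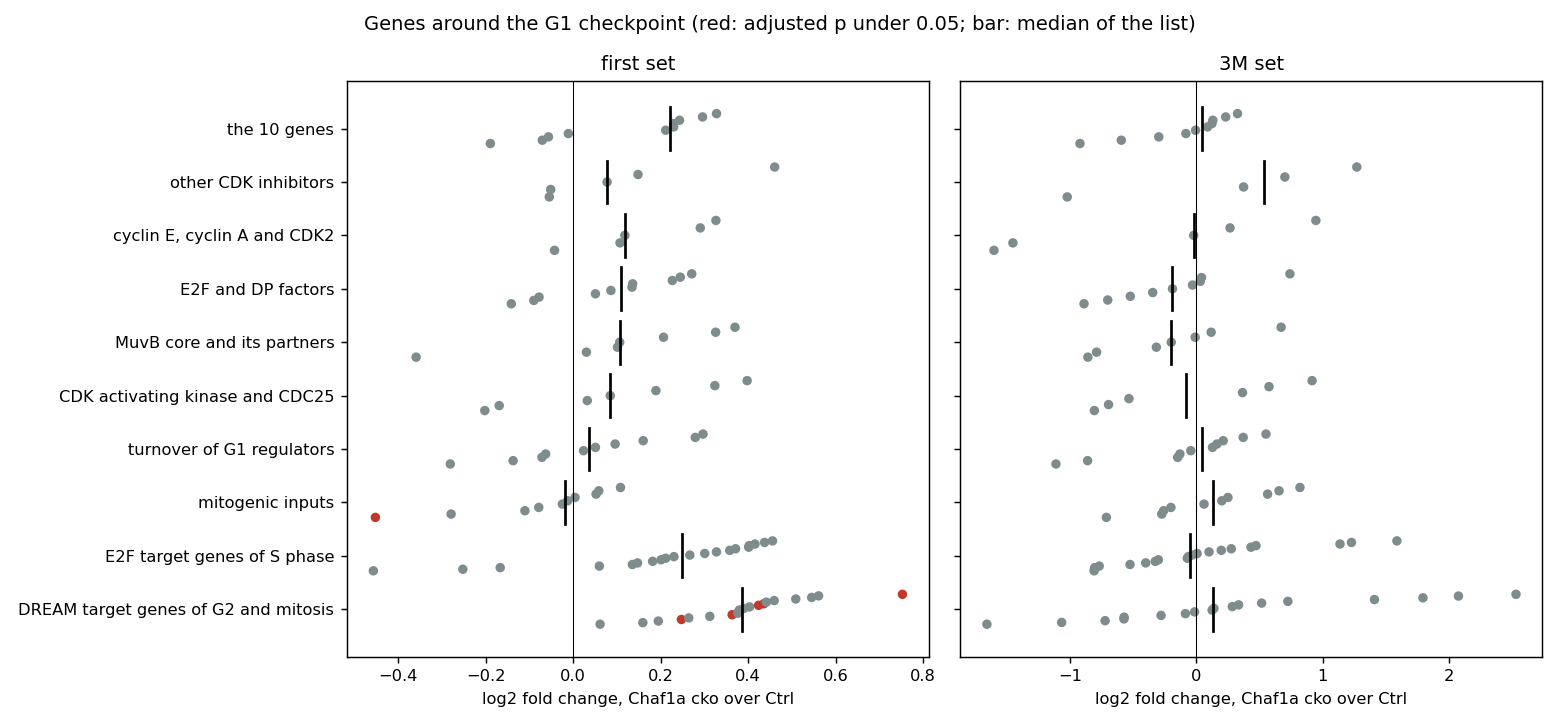
Log2 fold change of Chaf1a cko over Ctrl for the 10 genes and 9 lists of surrounding genes (1 point per gene tested, red at an adjusted p under 0.05, black bar for the list's median), in the first set (left) and the 3M set (right), whose horizontal axes have different ranges. In the first set the medians of the S phase and of the G2 and mitosis lists, 0.25 and 0.38, are the highest of the surrounding lists; in the 3M set no gene is red.

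In the first set the markers of other cells had these summed levels beside the mitotic genes. Endothelial markers were at 3172 to 3218 CPM in Chaf1a cko and 3063 to 3286 CPM in Ctrl, and all 10 had counts. Mural markers were at 681 to 709 CPM in Chaf1a cko and 663 to 703 CPM in Ctrl, with 0 of 7 that rose and 1, Myh11, that fell. Macrophage markers were at 78.1 to 93.5 CPM in Chaf1a cko and 87.9 to 107 CPM in Ctrl, and lymphocyte markers at 19.0 to 19.5 CPM in Chaf1a cko and 17.9 to 24.99 CPM in Ctrl. Of the 10 cardiomyocyte markers 1 rose (Mybpc3) and 3 fell (Myh6, Ryr2 and Ttn), with the sums given above. Fibroblast markers were at 3015 to 3041 CPM in Chaf1a cko and 3622 to 3728 CPM in Ctrl, with 11 of 11 having counts, 0 that rose and 5 that fell (Col1a1, Col1a2, Col3a1, Dcn and Lum). Beside these counts, 0.74% of all genes tested were called higher and 0.435% lower. Erythroid markers were at 138 to 160 CPM in Chaf1a cko and 123 to 126 CPM in Ctrl, with 6 of 6 having counts. The groups did not overlap for cardiomyocyte, fibroblast and erythroid markers, whose part in the values of the cell cycle genes was not tested.

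In the 3M set 0 genes of the 9 lists passed in edgeR and 0 in DESeq2's Wald test. At an unadjusted p under 0.05 there were 2 on the higher side and 1 on the lower side. Of all genes tested in that set, 3.2% and 3.73% were counted on those sides. Mki67 was at 7.47 ± 5.05 CPM in Chaf1a cko 3M and 7.92 ± 2.04 CPM in Ctrl 3M (SD, n = 3 each), and the 20 genes of G2 and mitosis together at 44.6 to 79.1 CPM in Chaf1a cko 3M and 35.8 to 63.4 CPM in Ctrl 3M. Cenpf had a log2 fold change of 2.53 (SE 0.79, adjusted p 0.620 in edgeR), or 1.30 without Chaf1a cko 3M replicate 1, with 16.6 ± 16.7 CPM in Chaf1a cko 3M and 2.83 ± 1.38 CPM in Ctrl 3M. For the DP factors the values were -0.89 for Tfdp1 (46.5 ± 7.43 CPM in Chaf1a cko 3M and 86.1 ± 28.8 CPM in Ctrl 3M; adjusted p 0.607 in edgeR) and 0.74 for Tfdp2. Fbxo31, an F-box protein gene, had a log2 fold change of 0.55 (SE 0.19). Cdkn1a averaged 71.1 ± 56.6 CPM in Chaf1a cko 3M and 144 ± 64.7 CPM in Ctrl 3M (log2 fold change -1.02, SE 0.75). The other genes named by the same rule lay between -0.81 (Cdk7) and 0.58 (Wee1). Wee1 was at 1.11 with the replicate block and ranged from 0.088 to 1.68 when 1 library was left out.

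A search for genes with profiles like the members' gave, for Ccnd2 in the first set, Ptp4a2, Ankrd6 and Mrps10, with Pearson's r of 0.995, 0.984 and 0.983 across 6 libraries. For Rbl1 in the 3M set it gave Hps3, Plpp1 and Rnf5, with r of 1.00, 0.990 and 0.982. The r with Ccnd2 was above 0.95 for 23 of 9831 protein-coding genes, and the r with Rbl1 for 31 of 9572, so these are a description of the tables over 6 libraries each, in which the scaling of a library is common to all its genes.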

How the data were processed

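Gene counts for 12 libraries were deposited by the authors as whole numbers per gene symbol, with no normalization, in 2 tables of 6. Per the submitters' processing notes, FastQC, Trimmomatic, HISAT2 and mm10 were used; how reads were counted, with which annotation and strandedness, is stated neither in the labels nor in those notes. Reads of overlapping genes on opposite strands may not be separated. Samples were grouped by title. The members and lists were chosen with earlier results of these data known.

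The 2 tables were fitted separately (edgeR 4.0.16, R 4.3.3): filterByExpr (minimum count 10, minimum total 15), TMM scaling, glmQLFit (robust) and a two-sided glmQLFTest of Chaf1a cko over Ctrl, with Benjamini-Hochberg adjustment over all genes tested and a threshold of 0.05. Intervals are 95% and cover counting error and the spread between libraries. Replicate libraries of a group differed beyond counting noise (chi-square per degree of freedom 9.09 or more). Named pathway genes are called members of a list (up to 4) and, with fewer than 2 called, the 2 most abundant. Kif11 and Cdkn2c were added after their values were seen. Profile searches used genes of at least 10 CPM. The fits were tested on simulated data. Alternatives were other scalings and filters, DESeq2 1.42.0, a replicate block and leaving out each library. Positions and exon lengths are from GENCODE M21 (GRCm38).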

Additional observations from a re-analysis of the deposited data

How the results depend on the processing

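With an adjusted p under 0.05, 0 of the 10 genes was called in each set, and 0 differed between the sets, under every alternative run. Rbl1 kept its sign without each library in turn (log2 fold change 0.13 to 0.55 in the first set, -1.15 to -0.57 in the 3M set). DESeq2's Wald test called 490 genes in the first set (270 by edgeR), 18 pathway genes (6 by edgeR) and 76 genes in the 3M set (2 by edgeR), and the cause was not tested. Without a filter on low counts 6 genes were called in the 3M set. The main fit did not treat libraries with the same replicate number as pairs. In the first set their deviations correlated at -0.0375 to 0.0372, against -0.0767 to 0.0395 for other numbers. In the 3M set this was 0.0264 to 0.0574 against -0.0664 to 0.0124, and each library correlated best with its own number. With 3 libraries per group this cannot exclude pairing. With a replicate block 192 genes were called in the first set (270 without it) and 0 in the other, and the signs turned for Cdk2 in the 3M set (0.026) and for the difference between the sets of Rbl2 (0.042). Cdkn1b in the 3M set turned to 0.038 with library size alone, 0.0049 without a filter and 0.00068 with a minimum of 10 CPM in 3 libraries.

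Leaving out 1 library gave 128 to 201 genes called in the first set, 2 to 4 pathway genes and 0 to 5 genes in the 3M set, with fewer samples in each fit. The sign of the log2 fold change turned without some library for these genes of the first set: Ccnd3 (-0.18 to 0.031), Cdkn1b (-0.034 to 0.0082), Chaf1a (-0.13 to 0.27), Cdkn1a (-0.22 to 0.096), Cdkn2d (-0.19 to 0.036), Cdk2 (-0.13 to 0.0080), E2f7 (-0.041 to 0.14), Usp28 (-0.14 to 0.024) and Tbx20 (-0.036 to 0.011). In the 3M set it turned for Ccnd3 (-0.057 to 0.26), Cdk4 (-0.13 to 0.0086), Cdk6 (-0.56 to 0.11), Cdkn1b (-0.52 to 0.37), Rbl2 (-0.29 to 0.50), Chaf1a (-0.16 to 0.96), Cdkn2d (-0.21 to 0.62), Cdk2 (-0.24 to 0.15), Ccna2 (-0.075 to 0.44), Cdk7 (-1.76 to 0.72), Usp28 (-0.12 to 0.082), Max (-0.36 to 0.086), Mcm7 (-0.078 to 0.21) and Mki67 (-0.77 to 0.27). For the difference between the sets it turned for Ccnd2 (-0.058 to 0.33), Cdk6 (-0.51 to 0.20), Cdkn1b (-0.47 to 0.35), Cdkn1c (-0.21 to 0.39) and Rbl2 (-0.50 to 0.33). Values that moved by over 1.5 times with no turn of sign were, beside Rbl1, in the first set Ccnd1 (-0.30 to -0.13), Ccnd2 (0.15 to 0.30), Cdk6 (-0.14 to -0.0060), Rb1 (0.076 to 0.34), Rbl2 (0.14 to 0.25), Rbbp4 (0.053 to 0.17), Cdc25b (0.091 to 0.32), Cul1 (0.095 to 0.20) and Rrm1 (0.13 to 0.27). In the 3M set these were Ccnd1 (0.0049 to 0.40), Ccnd2 (0.14 to 0.52), Cdkn1c (0.048 to 0.59), Rb1 (-0.89 to -0.20), Cdkn1a (-1.80 to -0.56), Cenpf (1.30 to 2.96), Wee1 (0.088 to 1.68), Tfdp2 (0.45 to 1.04), Ctnnb1 (-0.48 to -0.011), Pcna (-0.60 to -0.14), Lin37 (-0.46 to -0.12) and Rbbp4 (-0.30 to -0.093). The differences between the sets of Ccnd1 (0.18 to 0.62), Ccnd3 (0.049 to 0.36) and Rb1 (-1.08 to -0.40) moved likewise. For genes of 20 to 350 CPM the median SE was 0.115 (first set) and 0.248 (3M set), which bounds the differences that could be seen.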
